A study of Mus musculus with 16 samples.

Results

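The genes described here are 40 genes of the interstitial matrix, the collagens, elastic fibre proteins, proteoglycans and adhesive glycoproteins that fill the space between mesenchymal cells. The list was set by gene name, and each gene was read from the probe set (the group of short DNA probes for 1 transcript) with the highest mean log2 signal over the 16 arrays. Of the 40 genes, 37 had a probe set annotated to that gene alone, out of 18193 genes with such a probe set. The expression of Fbn1 and Efemp2 was not analysed here, nor was that of Loxl2, whose probe sets are annotated to a second gene as well.

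Transcripts were measured at E11.5 (days of embryonic development) in mouse kidney rudiments, in which the ureteric bud (UB), the epithelium that later forms the collecting ducts, has grown into the metanephric mesenchyme (MM), the source of nephrons and stroma. The wild-type UB group holds 4 samples, and each of them pools 3 to 9 buds; the wild-type MM group holds 3 samples, each an individual mesenchyme. Both were separated by hand after collagenase B at 0.5 mg/ml and 37 °C. A further 4 wild-type MM samples, each pooled from 3 to 4 mesenchymes, and 5 Hoxa11/Hoxd11 double null MM samples were cut by laser capture from frozen sections 7 µm thick. The wild-type sections came from kidney rudiments and the null sections from urogenital ridges, so genotype and source tissue differ together, and the number of null mesenchymes per sample is not stated in the labels used here. Hoxa11 and Hoxd11 are homeobox transcription factors that act together in the early kidney. Strain, null allele design and litters are not stated in those labels. The series text calls the replicates separate embryos. The stated purpose was to find genes particular to bud or mesenchyme, and candidate targets of the Hox genes.

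Fibrillar collagens I, III and V assemble into the fibrils that give loose connective tissue its strength, and fibril-associated collagens and small proteoglycans set the width and spacing of those fibrils. Fibrillins, fibulins and microfibril-associated proteins form the microfibrils on which elastin is laid down, and lysyl oxidases cross-link both networks. Fibronectin and versican form a looser early matrix around mesenchymal cells, whereas epithelia such as the bud rest on a basement membrane built of laminins and collagen IV, which are not among these genes.

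Promoter sequences are shown for 2 collagens that were lower and 2 matrix genes that were higher in the bud, so that the starts of genes that moved in opposite directions can be read side by side. Each covers 250 bases before and 50 bases after an annotated start in RefSeq's GRCm38.p6, 5′ to 3′ on the gene's strand. Capitals mark 3 motifs on either strand: the TATA box TATAAA, the CCAAT box, which reads ATTGG on the other strand, and the GC box GGGCGG, which reads CCGCCC there. The windows are chr6:4505368-4505667 on the plus strand for Col1a2, chr1:45311288-45311587 on the plus strand for Col3a1, chr10:77166481-77166780 on the minus strand for the upstream start of Col18a1, and chr6:91212514-91212813 on the plus strand for Fbln2.
Col1a2: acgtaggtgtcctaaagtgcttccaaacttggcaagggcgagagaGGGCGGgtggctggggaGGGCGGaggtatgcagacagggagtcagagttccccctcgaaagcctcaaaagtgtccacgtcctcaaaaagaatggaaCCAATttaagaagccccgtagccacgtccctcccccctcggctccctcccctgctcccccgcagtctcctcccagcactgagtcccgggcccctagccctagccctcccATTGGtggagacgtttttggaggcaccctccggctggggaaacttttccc
Col3a1: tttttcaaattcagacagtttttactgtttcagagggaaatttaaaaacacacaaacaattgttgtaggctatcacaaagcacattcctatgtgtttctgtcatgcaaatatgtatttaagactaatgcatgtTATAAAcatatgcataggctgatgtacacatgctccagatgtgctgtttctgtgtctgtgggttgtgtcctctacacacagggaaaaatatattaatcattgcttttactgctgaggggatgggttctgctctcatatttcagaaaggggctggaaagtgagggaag
Col18a1: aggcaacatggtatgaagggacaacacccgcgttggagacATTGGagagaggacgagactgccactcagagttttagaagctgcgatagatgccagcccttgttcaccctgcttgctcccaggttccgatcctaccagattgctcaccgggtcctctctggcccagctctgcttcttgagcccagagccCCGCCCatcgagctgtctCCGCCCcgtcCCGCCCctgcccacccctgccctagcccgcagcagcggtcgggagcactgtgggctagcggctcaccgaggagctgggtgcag
Fbln2: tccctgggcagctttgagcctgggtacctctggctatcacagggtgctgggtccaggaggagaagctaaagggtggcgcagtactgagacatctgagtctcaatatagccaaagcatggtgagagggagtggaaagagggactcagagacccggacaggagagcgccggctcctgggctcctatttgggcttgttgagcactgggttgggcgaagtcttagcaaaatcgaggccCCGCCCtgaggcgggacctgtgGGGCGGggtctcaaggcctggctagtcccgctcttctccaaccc

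In these letters, Col1a2 held GGGCGG 205 and 188 bases before the start and CCAAT 109 bases before it, with ATTGG at the start itself. Col3a1 held a single marked motif, TATAAA, 117 bases before the start, in a window of 37.7% G and C. Col18a1 held GGGCGG 61, 43 and 33 bases before the start and CCAAT 210 bases before it, and its window was 63.3% G and C. The window at another annotated start of Col18a1, not printed here, held none of the marked motifs. Fbln2 held GGGCGG 16 bases before the start and again just after it. Windows were available for 23 of the 40 genes, 33 in all. They include windows of Fbn1 and Efemp2, whose expression was not analysed. Some genes, such as Efemp2, have several windows that overlap. GGGCGG, the core of the Sp1 site, was present in 20 of those 33 windows, against 35.7% of all 32851 windows. CCAAT was present in 9 of 33 windows, against 37.4%, and TATAAA in 5 of 33, against 13.6%. The median content of G and C was 59.7% in the windows of the matrix genes and 52.7% in all windows. These matches describe letters in a window and name no bound factor.

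The arrays were checked before the matrix genes were compared. The deposited signals of all 16 arrays had the same trimmed mean, and their medians ran from 112.7 to 209.2, the latter on null capture 1. Hoxa11 read 814.3, 656.4, 839.6 and 525.5 on the wild-type captures and 196.6, 91.8, 136.7, 95.7 and 98.8 on the null captures, so the groups did not overlap (log2 difference −2.23 ± 0.34, SE, adjusted p = 0.0114, limma). Hoxd11 read 341 ± 121 (SD, n = 5) in null and 435 ± 115 (SD, n = 4) in wild-type captures (adjusted p = 0.635, limma), and whether its probes lie in the deleted part is not stated in the labels. The summed signal of 10 ureteric bud markers was 179753 to 232835 on UB arrays, 3063 to 3294 on hand-dissected MM arrays, 10444 to 62874 on wild-type captures and 12722 to 47413 on null captures. Captured mesenchyme therefore carried more bud transcript than hand-dissected mesenchyme, with 9 of the 10 markers called higher in wild-type captures than in hand-dissected MM. Gata3, Cdh1 and Cldn3 exceeded their own array's median on no hand-dissected MM array. They entered that test only through the captures, so their place in the count supports nothing. Null capture 4 stood apart in the summed signal of 6 skeletal muscle and somite markers, 17994 there and 271 to 1557 on the other null captures. Most of it came from Myog (11900), Myod1 (3609) and Pax7 (1475), while Myf5 read 40.1 there and 56.2 on null capture 1. Neural crest and neuronal markers summed to 27482 on null capture 4 and to 16571 on null capture 1, against 2582 to 6394 on the other null captures and at most 4791 on wild-type captures. Most of the sums on captures 4 and 1 came from Stmn2 (9304.5 and 7403), Elavl4 (8918 and 5082), Ina (5060 and 898) and Tubb3 (3931 and 2967). Of the neural crest markers on capture 4, Sox10 was the lowest null value, at 72, and Foxd3 the highest, at 196.4. Null capture 5 stood apart in the summed signal of 7 gonad and coelomic markers, 34379 there and 1622 to 4759 on the other null captures. Most of it came from Amhr2 (12359.5), Upk3b (8010), Lhx9 (4802) and Nr5a1 (3089). On the same array Wt1 read 5555, inside the 3428 to 5830 of the wild-type captures, and Msln read 92.4, against 88.2 on null capture 3. Renal stroma markers, the labelled mesenchyme's own, summed to 62454 or more on every mesenchyme array and to 3109 or less on every UB array.

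**Figure D1:**
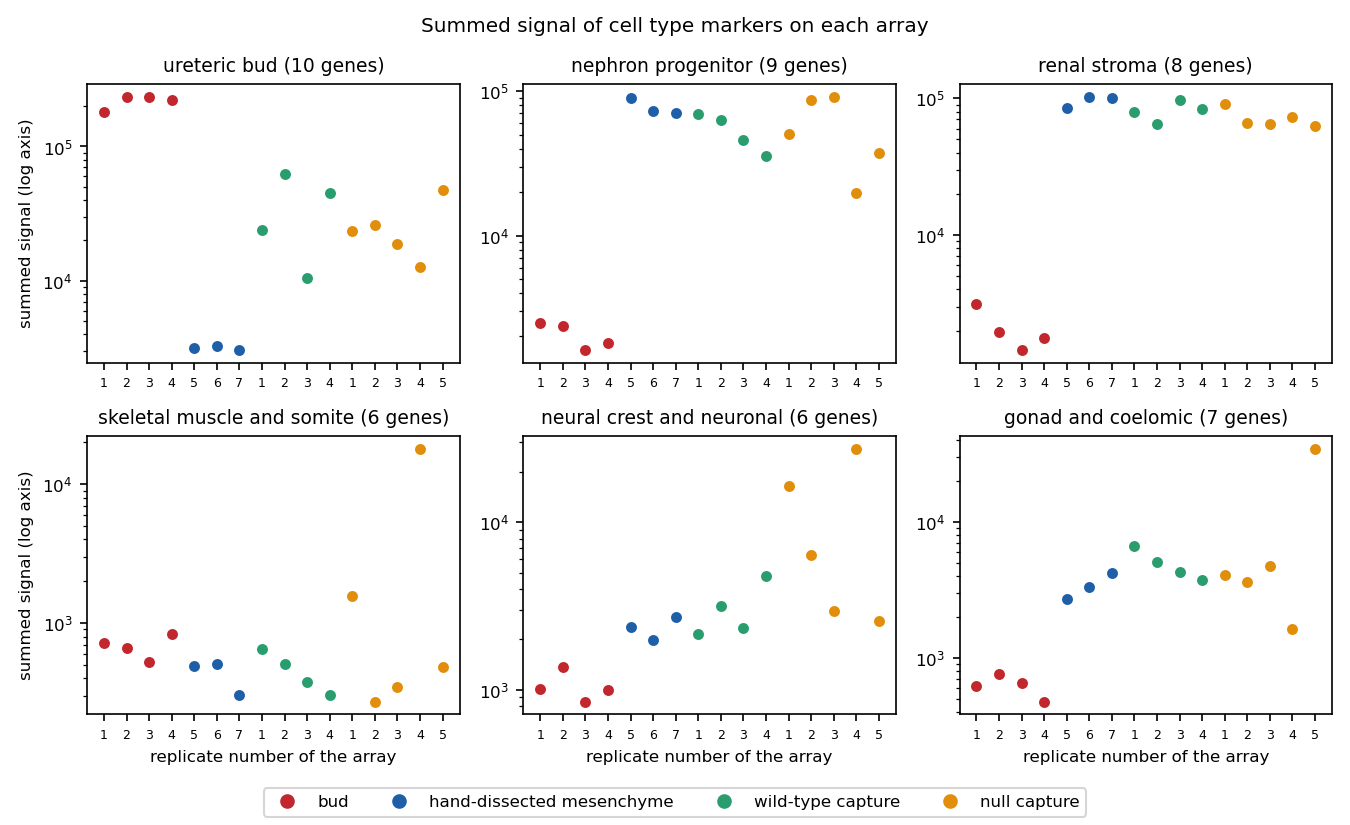
Summed signal (log axis) of 6 cell type marker lists on each of the 16 arrays, numbered by replicate within bud, hand-dissected mesenchyme, wild-type capture and null capture. Null capture 4 is high in skeletal muscle markers (17994), null captures 4 and 1 in neuronal markers (27482 and 16571), null capture 5 in gonad and coelomic markers (34379), and bud markers are higher in captured than in hand-dissected mesenchyme.

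Most of the interstitial matrix genes were lower in the bud than in the mesenchyme. Of 36 genes tested in UB against hand-dissected MM, 26 were lower in UB, 2 were higher and 8 were not called at an adjusted p of 0.05 (limma with Benjamini-Hochberg adjustment over all kept probe sets). Over all genes tested, each read from 1 probe set, 14.6% were called lower and 13.9% higher. The median log2 difference, UB minus MM, was −2.28 over the 36 genes and 0.01 over all genes tested. Of the 26, 7 passed the filter on dim probe sets only through the mesenchyme; without them 19 of 29 genes were lower and 2 higher, with a median of −1.98. The 4 UB arrays all lay below the 3 MM arrays for 27 of the 37 measured genes, all above for 2, and overlapped for 8. Over all genes tested 18.8% lay below and 17.5% above. The 27 include those 7 genes and the untested Dcn, all dim on every UB array. For these genes the order of the arrays supports nothing. In pieces of tissue, fewer cells of a type and less RNA per cell cannot be told apart. Markers of several other cell types were lower in UB too: 8 of 8 endothelial, 6 of 8 erythroid, 3 of 5 macrophage and 3 of 3 smooth muscle markers tested. Others were not: 2 of 4 chondrogenic markers tested were higher and 0 lower (list median 1.05), and the 1 skeletal muscle and somite marker tested was higher, at 1.19. Of 4 neural crest and neuronal markers tested 1 was higher and 2 lower, and of 3 gonad and coelomic markers 1 was lower. Among these markers Flt1, Tyrobp, Tagln, Stmn2 and Wt1 exceeded their own array's median on no UB array. They entered the test only through the mesenchyme, so their place in these counts supports nothing. Tubb3, the neuronal marker called higher, exceeded its own array's median on no hand-dissected MM array. It entered only through the bud, so its place in the count supports nothing either. The part of these cell types in the matrix differences was not tested.

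**Figure D2:**
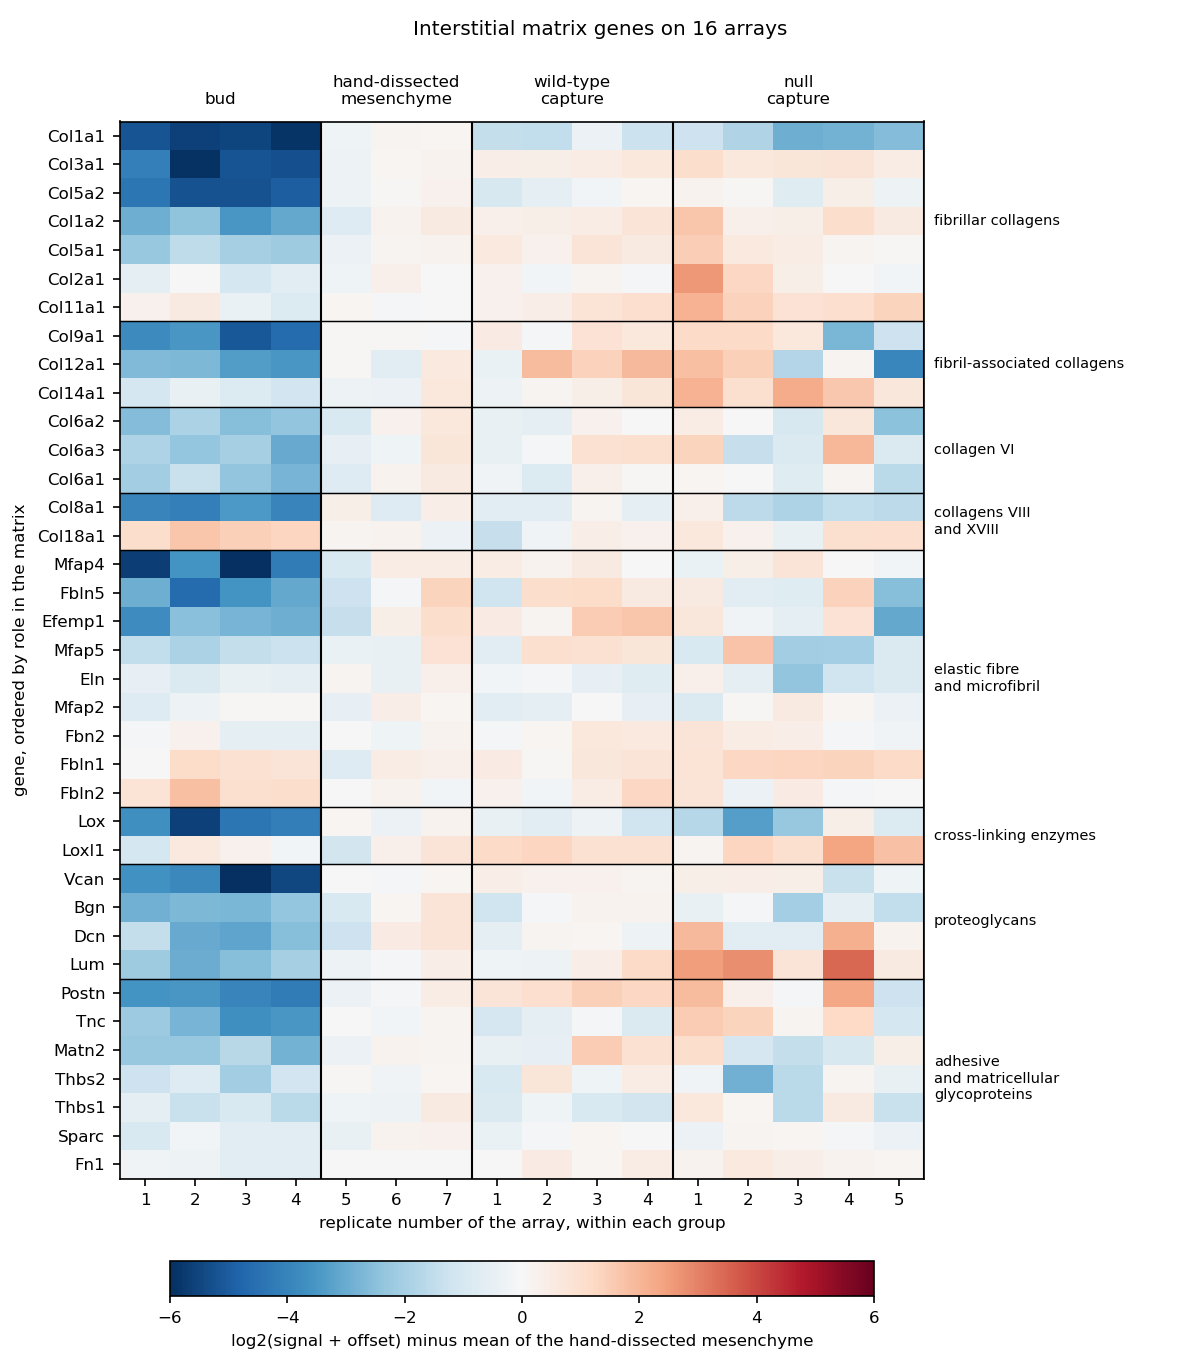
Log2(signal + offset) of 37 matrix genes (rows, grouped by role) on 16 arrays (columns, by replicate number), minus the mean of the 3 hand-dissected mesenchyme arrays; blue is lower, red higher, and the colour scale ends at 6 log2 units each way. The bud columns are blue for most genes, with Col18a1, Fbln1 and Fbln2 the rows that are red there.

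Among the fibrillar collagens, Col1a1, which encodes the main chain of type I collagen, read 277.6, 200.3, 214.9 and 159.1 on the UB arrays and 9610, 12697 and 12442 on the MM arrays. Every UB array was far below every MM array, and the means stood 54.4-fold apart (log2 difference −5.55 ± 0.23, SE, adjusted p = 2.44e-08, limma). Col3a1, the type III chain of soft tissues, read 2181, 585.5, 1003 and 943.1 in UB and 30761, 41121 and 44073 in MM. Its means stood 32.8-fold apart (−5.13 ± 0.35, SE, adjusted p = 8.77e-07, limma), and UB array 1 was the highest of the bud arrays. Col5a2, a chain of the type V collagen that nucleates fibrils, read 690.9, 352.3, 348.1 and 436.8 in UB and 11583, 15242 and 17331 in MM. The Col5a2 difference was −4.93 ± 0.27 (SE, adjusted p = 1.51e-07, limma). Col1a2, the partner chain of Col1a1 whose promoter is printed above, differed by less, at 2068 ± 665 (SD, n = 4) in UB and 17119 ± 7246 (SD, n = 3) in MM, or −2.98 ± 0.33 (SE). Col5a1, the partner of Col5a2, also differed by less, at −1.98 ± 0.24 (SE). Whether partner chains differ from each other in this contrast was not tested.

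The cartilage-type fibrillar collagens were not called. Col2a1, the main collagen of cartilage, read 849 ± 282 (SD, n = 4) in UB and 1239 ± 245 (SD, n = 3) in MM, with a 95% interval of the log2 difference from −1.16 to 0.04. Col11a1, which associates with it, read 1109 ± 475 (SD, n = 4) and 1108 ± 97 (SD, n = 3), with an interval from −0.78 to 0.60. Both were thus on bud arrays at levels that overlapped those of the mesenchyme, while collagens I, III and V were not.

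All 3 fibril-associated collagens were lower in UB. Col9a1, a chain of collagen IX best known from cartilage, read 515.2, 644.1, 186.6 and 275.7 in UB and 7995, 8004 and 7018 in MM. The MM arrays lay within 1.14-fold of each other, and the difference was −4.26 ± 0.35 (SE, adjusted p = 3.61e-06, limma). A second, dimmer Col9a1 probe set gave a smaller difference, −1.19 (adjusted p = 0.0113, limma). Col12a1 differed by −3.04 log2 units and Col14a1 by −0.87. The call of Col14a1 was held in 12 of 21 alternative settings, and a second Col14a1 probe set was not called (−0.11, adjusted p = 0.819, limma).

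Collagen VI forms beaded filaments that link cells to fibrils, and its 3 chains differed by similar amounts. Col6a1 read 495.6, 855.7, 401.7 and 293.4 in UB and 1295, 2598 and 3209 in MM, a difference of −2.14 ± 0.37 (SE, adjusted p = 0.00133, limma). Col6a2 differed by −2.36 ± 0.34 and Col6a3 by −2.30 ± 0.35 (SE). For all 3 chains, MM array 5 was the lowest and MM array 7 the highest.

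Collagens VIII and XVIII, which lie at or near basement membranes, went in opposite directions. Col8a1 read 12, 6.9, 31.5 and 11.1 in UB and 906.0, 406.9 and 961.3 in MM, a difference of −3.88 ± 0.35 (SE, adjusted p = 8.10e-06, limma). No UB array exceeded its own array's median for Col8a1, so the difference depends on the offset added before taking logs. Col18a1, the precursor of endostatin, read 19416, 30076, 25561 and 22662 in UB and 10367, 10927 and 7248 in MM. Every UB array was above every MM array, by 2.57-fold in the means (1.36 ± 0.19, SE, adjusted p = 2.84e-04, limma). A second Col18a1 probe set gave 2.26 in the same direction (adjusted p = 1.97e-04, limma).

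The elastic fibre and microfibril genes were divided, with 4 of 9 lower, 1 higher and 4 not called. Mfap4, a microfibril-associated protein, read 44.6, 297.9, 12.8 and 188.4 in UB and 2152, 5586 and 5427 in MM. The bud arrays differed 23.3-fold among themselves, yet the highest lay below the lowest MM array (−4.95 ± 0.59, SE, adjusted p = 7.61e-05, limma). Efemp1, a fibulin-related glycoprotein, and Fbln5, which helps assemble elastic fibres, differed by −3.01 and −3.56 log2 units, and Mfap5 by −1.53. Fbln2, a fibulin that binds fibronectin and basement membrane proteins, read 471.7, 967.7, 524.1 and 550.2 in UB and 243.8, 289.7 and 218.6 in MM. Its 4 bud arrays lay above all MM arrays, 2.51-fold in the means (1.16 ± 0.27, SE, adjusted p = 0.00881, limma). Fbln1 read 2384, 5088, 4564 and 4117 in UB and 1387, 3262 and 2973 in MM, with UB array 1 inside the mesenchymal range. Its difference of 0.70 ± 0.34 (SE) was not called (adjusted p = 0.159, limma), and its other probe sets gave 0.33 and −0.81, neither of them called. Fbn2, the fibrillin of embryonic microfibrils, read 25846, 32591, 18548 and 18761 in UB and 28211, 22971 and 31912 in MM. The Fbn2 groups overlapped, with a 95% interval from −0.68 to 0.21. Mfap2 (−0.84 to 0.35) and Eln, elastin itself (−1.16 to 0.02), were not called either.

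The lysyl oxidases were divided as well. Lox read 149.7, 12, 82.2 and 98.6 in UB and 2541, 1822 and 2743 in MM (−4.44 ± 0.40, SE, adjusted p = 7.66e-06, limma). Loxl1 read 337.8, 1120, 894.2 and 665.6 in UB and 330.2, 921.6 and 1300 in MM, with a 95% interval from −1.09 to 0.91. The Loxl1 arrays overlapped fully, and the interval is wide enough to hold a difference the size of that called for Col14a1.

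All 3 proteoglycans tested were lower in UB. Vcan, versican, the large proteoglycan of loose embryonic matrix, read 2769, 2337, 496.3 and 757.8 in UB and 34920, 31845 and 36998 in MM. UB arrays 1 and 2 were higher than arrays 3 and 4, and all lay far below the MM arrays (−4.74 ± 0.49, SE, adjusted p = 2.39e-05, limma). Of its other probe sets, the 2 that passed the filter gave −4.83 and −5.39. Biglycan (Bgn) differed by −2.66 and lumican (Lum) by −2.42 log2 units. Decorin (Dcn) failed the filter on dim probe sets: it read 111.8, 13.4, 8.8 and 31.5 in UB and 130.2, 525.5 and 639.8 in MM.

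Of the 7 adhesive and matricellular glycoproteins, 6 were lower in UB. Periostin (Postn) read 151.1, 163.8, 109.5 and 87.3 in UB and 1726, 2068 and 3069 in MM (−3.81 ± 0.27, SE, adjusted p = 1.21e-06, limma). Tenascin C (Tnc) and matrilin 2 (Matn2) differed by −3.05 and −2.26 log2 units, and the thrombospondins Thbs1 and Thbs2 by −1.09 and −1.32. Fibronectin (Fn1) differed least among the called genes. It read 31645, 29825, 23650 and 23542 in UB and 37001, 37369 and 35976 in MM, so the bud arrays carried 0.739 times the mesenchymal mean (−0.45 ± 0.13, SE, adjusted p = 0.0301, limma). The Fn1 call was held in 10 of 21 alternative settings. Sparc read 10780 ± 2541 (SD, n = 4) and 16242 ± 3965 (SD, n = 3) and was not called (−0.59 ± 0.22, SE, adjusted p = 0.0770, limma).

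**Figure D3:**
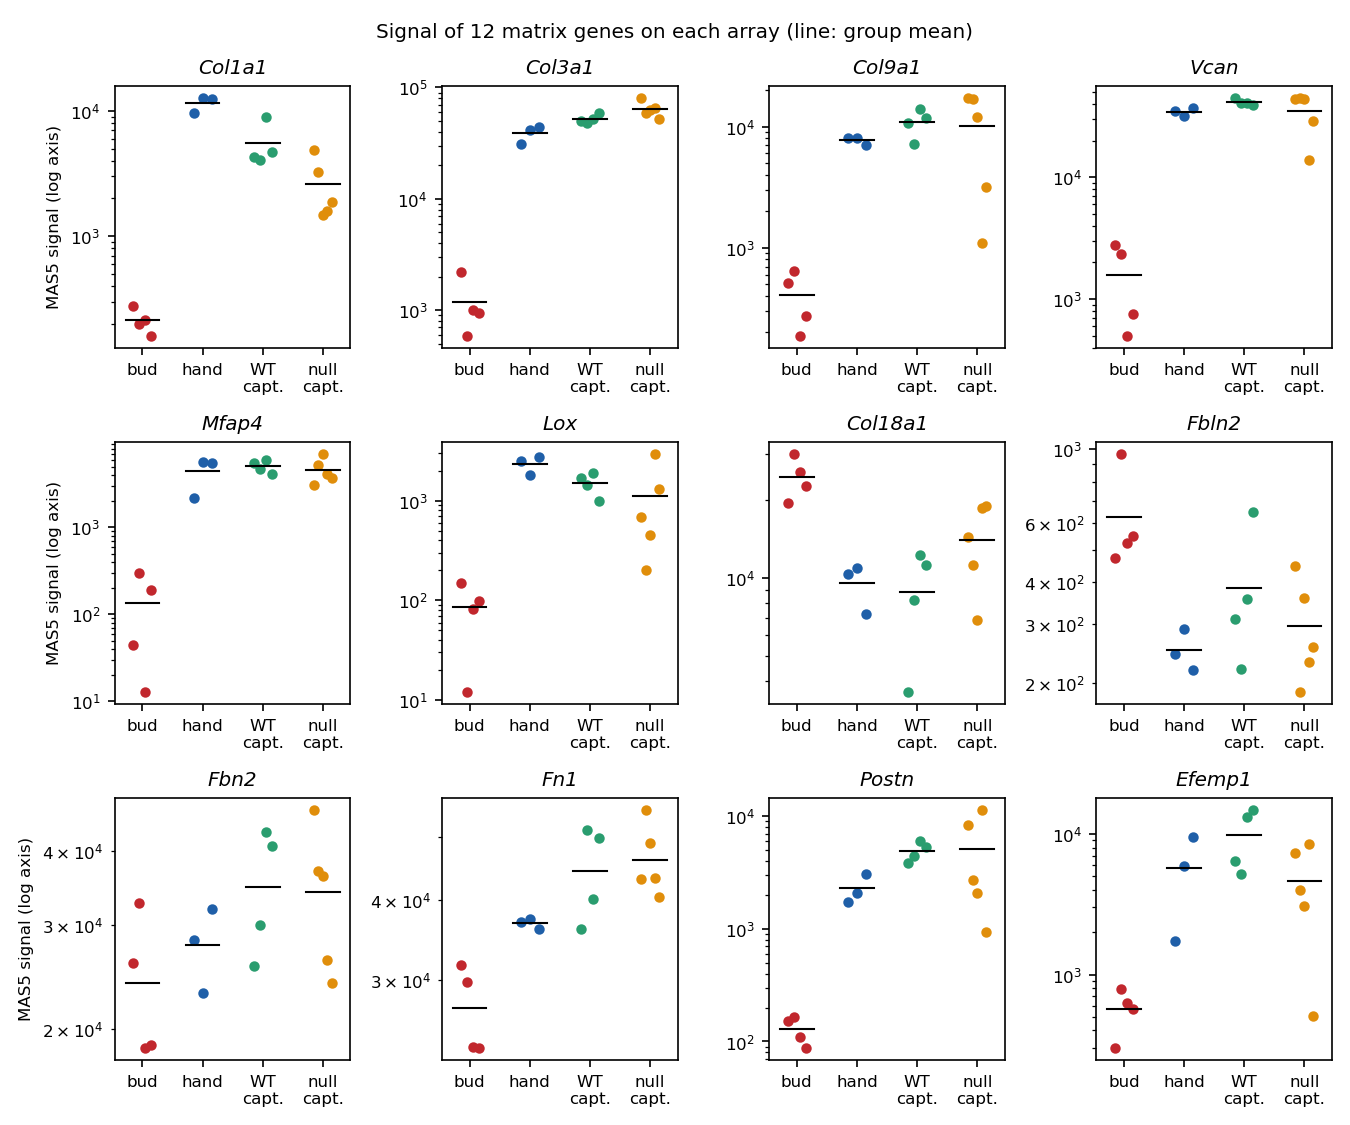
MAS5 signal (log axis) of 12 matrix genes on each array in bud, hand-dissected mesenchyme, wild-type capture and null capture; points are arrays and lines are group means. Col1a1, Col3a1, Col9a1, Vcan, Mfap4, Lox, Postn and Efemp1 are lower on every bud array than on any hand-dissected mesenchyme array, Col18a1 and Fbln2 are higher, and the Fbn2 ranges overlap.

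For 7 genes (Col12a1, Col8a1, Fbln5, Mfap5, Lum, Tnc and Matn2) no UB array exceeded its own array's median. They entered the test only through the mesenchyme, where they are high, so their calls and their place in the counts by role support nothing. Without them, 2 of 7 elastic fibre genes, 2 of 2 fibril-associated collagens, 2 of 2 proteoglycans and 4 of 5 adhesive glycoproteins tested were lower, and the remaining gene of collagens VIII and XVIII was higher. Of the 21 called genes left, 17 were called under every alternative setting that tested them, the exceptions being Col14a1, Fn1, Thbs1 and Thbs2. With 1 mean per gene over all its probe sets, 25 genes were tested, 15 of them lower and 1 higher. The other probe sets of the same genes gave 13 calls among 20 tested, 0 of them in the opposite direction. The ratio of 3′ to 5′ control probe sets, a sign of transcript length after amplification, was 8.72 in UB and 42.5 in MM for Gapdh (exact permutation test, two-sided, p = 0.0286, or 0.171 after adjustment for 6 such tests) and 13.1 and 13.8 for Actb (p = 0.743). The Gapdh ratios did not overlap, at 6.53 to 12.2 in UB and 22.1 to 69.3 in MM. With 4 against 3 arrays an exact permutation test can give no p below 0.0286, so the adjusted value does not show equal ratios. The part of this ratio in the matrix differences was not tested.

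Neighbouring matrix genes had differences of the same sign in this contrast, as did nearly all the matrix genes. Only Col18a1, Fbln1 and Fbln2 had positive differences, so the shared sign says nothing particular about neighbours. In the gene table of GRCm38.p6, Col3a1 and Col5a2 lie next to each other on chromosome 1, and Col6a2 and Col6a1, and Dcn and Lum, on chromosome 10, with 0 protein-coding genes between them. Their log2 differences were −5.13 and −4.93, −2.36 and −2.14, and −2.53 and −2.42 for these pairs, Dcn being untested. Between captured and hand-dissected MM the signs were opposite for Col3a1 and Col5a2 (0.45 and −0.38) and for Dcn and Lum (−0.15 and 0.23). They were shared there by Col6a2 and Col6a1 (−0.20 and −0.17), and in null against wild type by each pair.

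Genes that make, cut and bind the matrix were read from fixed lists, whose counts stand beside the 14.6% lower and 13.9% higher over all genes tested. Any list genes that entered the test only through the mesenchyme were not set apart in these counts. Of 18 collagen synthesis and processing genes tested, 5 were lower in UB and 1 was higher. Adamts3, which trims procollagens, differed by −3.61, Pcolce, an enhancer of procollagen cleavage, by −3.02, Tll1 by −2.26 and P3h1 by −1.64. Plod1, a lysyl hydroxylase, was higher in UB: it read 2672 ± 1210 there (SD, n = 4) and 736 ± 386 in MM (SD, n = 3), a difference of 1.84 ± 0.42 (SE, adjusted p = 0.00748, limma).

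Of 14 matrix proteases and inhibitors tested, 11 were lower in UB and 0 were higher, with a list median of −1.14. Plat, tissue plasminogen activator, read 242 ± 37 (SD, n = 4) in UB and 10357 ± 1994 (SD, n = 3) in MM (−5.21 ± 0.23, SE). Adamts4, Timp1 and Timp3 differed by −2.40, −2.26 and −2.13. Among 13 genes of the TGF-beta axis and the CCN family, which regulate matrix production, 4 were lower and 1 higher. Tgfbi, a secreted adhesive protein induced by TGF-beta, differed by −5.49 and the ligands Tgfb2 and Tgfb3 by −3.39 and −3.01, while Ccn1 was higher by 1.08.

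Of 16 matrix receptors tested, 5 were lower and 1 higher. Itga8, an integrin chain of the mesenchyme, read 148 ± 14 (SD, n = 4) and 7972 ± 1497 (SD, n = 3), and Ddr2, a receptor for fibrillar collagen, differed by −5.33. Cd44 and Mrc2 differed by −2.62 and −2.27, and Itga4 was higher by 1.04. Among 26 further interstitial matrix genes tested, 14 were lower and 2 higher. Has2, a hyaluronan synthase, differed by −4.66, while Has3, another hyaluronan synthase, and Hapln1, a hyaluronan link protein, were higher in UB by 1.51 and 1.39.

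Loss of Hoxa11 and Hoxd11 was compared over 5 null and 4 wild-type captures. In this comparison 0 of 37 matrix genes passed an adjusted p of 0.05 (limma), against 1.74% of all genes tested (0.748% higher, 0.995% lower). An unadjusted p under 0.05 was found for 6 matrix genes, against 19.1% of all genes tested. The median log2 difference, null minus wild type, was −0.18 over the matrix genes and −0.10 over all genes, and 0.07 over the matrix genes without null captures 4 and 5, with 0 called. The arrays did not overlap for 1 gene, Fbln1, while 9.03% of all genes tested had non-overlapping arrays, 3.26% with null above and 5.77% with null below. A p that missed the threshold does not show equal levels. Of 7 macrophage markers tested 1 was lower (list median −2.28), and of 4 neural crest and neuronal markers 1 was higher (1.64). Ina, among those 4, exceeded its own array's median on no wild-type capture, so its place in the count supports nothing. In the other marker lists 0 were called, with medians from −1.12 to 0.52. The part of these cell types in the null comparison was not tested.

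The 6 genes with an unadjusted p under 0.05, named after their values were seen, were Col1a1, Col11a1, Col14a1, Fbln1, Lum and Tnc. Col1a1 read 4897, 3228, 1473, 1574 and 1866 on null captures and 4305, 4086, 8982 and 4740 on wild-type captures. The groups overlapped through null capture 1, and the difference was −1.15 ± 0.38 (SE, 95% interval −1.98 to −0.33, adjusted p = 0.136, limma). Col14a1 read 5089, 2363, 5738, 3750 and 1898 against 942.9, 1321, 1529 and 1974, with null capture 5 inside the wild-type range. Its difference was 1.29 ± 0.35 (SE), and its adjusted p of 0.0902 (limma) was the lowest among the matrix genes. A second Col14a1 probe set that passed the filter had the opposite sign, at −0.70 (adjusted p = 0.373, limma). Fbln1 read 4283, 5733, 5815, 6081 and 5270 against 3324, 2500, 3814 and 4094, with every null capture above every wild-type capture (0.67 ± 0.20, SE, adjusted p = 0.104, limma). The other 2 Fbln1 probe sets gave −0.11 and −0.12 (adjusted p = 0.901 and 0.904, limma).

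Lumican read 2262, 2749, 652.3, 4341 and 560.5 on null captures and 304.4, 289.5, 494.2 and 863.1 on wild-type captures (1.76 ± 0.60, SE, adjusted p = 0.149, limma). The highest null value was on capture 4, the array with muscle markers. Null captures 1 and 2 also lay above every wild-type capture, and capture 2 had the lowest muscle sum of the null captures, 271. The part of muscle cells in the lumican values was not tested. Tnc differed by 1.26 ± 0.51 (SE, adjusted p = 0.217, limma) and Col11a1 by 0.72 ± 0.28 (SE, adjusted p = 0.203, limma). Col14a1, Lum and Col1a1 passed when all 4 groups shared 1 estimate of the spread, Col14a1 and Col1a1 passed with array weights, and Fbln1 and Col1a1 passed without null capture 1.

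Some 95% intervals were narrow and others wide. Fn1 read 46128 ± 5951 (SD, n = 5) in null and 44374 ± 7473 (SD, n = 4) in wild-type captures, with a 95% interval of the log2 difference from −0.25 to 0.37. The interval was −0.37 to 0.35 for Sparc, −0.52 to 0.44 for Fbn2 and −0.01 to 0.56, mostly above 0, for Col3a1. It was −3.94 to 0.63 for Col12a1, −2.91 to 0.26 for Mfap5 and −2.94 to 0.08 for Efemp1.

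**Figure D4:**
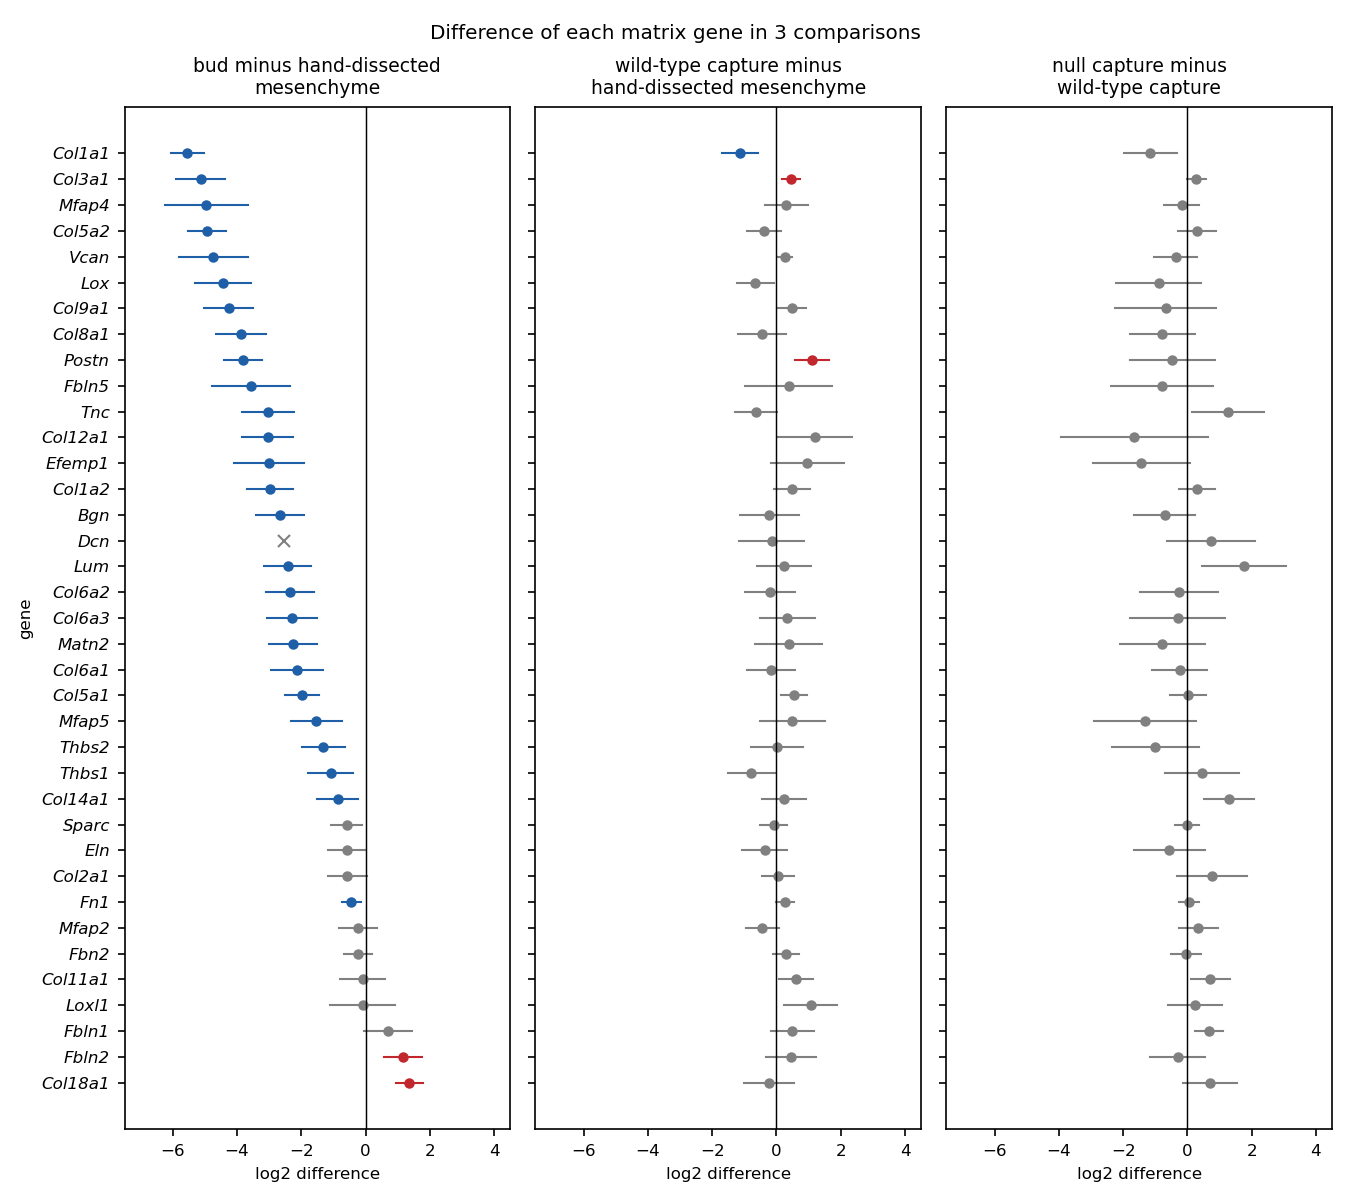
Log2 difference of each matrix gene (point) with its 95% interval (line) for bud minus hand-dissected mesenchyme, wild-type capture minus hand-dissected mesenchyme, and null minus wild-type capture; red is called higher, blue called lower, grey not called, and a cross untested. Differences reach −5.55 in the first panel, while 3 genes are called in the second and 0 in the third, where intervals are widest for genes such as Col12a1 and Efemp1.

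Of the listed genes that act on the matrix, Serpinh1, the collagen chaperone, was higher in null captures: it read 45950 ± 10114 there (SD, n = 5) and 25825 ± 1325 in wild-type captures (SD, n = 4), a difference of 0.80 ± 0.17 (SE, adjusted p = 0.0399, limma). Loxl3, a lysyl oxidase, was lower, at 973 ± 249 against 2125 ± 284 (−1.12 ± 0.25, SE, adjusted p = 0.0469, limma). These were 2 of 20 collagen synthesis and processing genes tested, beside 1.74% of all genes tested. In the lists of proteases and inhibitors, the TGF-beta axis, receptors and other interstitial matrix, 0 genes of 15, 15, 15 and 26 tested were called.

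The null captures differed more among themselves than any other group. The median SD of log2 values over 36 matrix genes was 0.82 in null captures, 0.40 in wild-type captures, 0.40 in hand-dissected MM and 0.44 in UB. Over 11692 genes the same medians were 0.48, 0.27, 0.27 and 0.30. The SD was larger in null than in wild-type captures for 31 of the 36 matrix genes and for 81.1% of all genes. Without null captures 4 and 5 the median SD of the matrix genes was 0.71, beside 0.43 for all genes.

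The spread ran partly along arrays. On null capture 1 the matrix genes lay on average 0.64 log2 units above their group mean, and that array, high in neuronal markers, was highest for 15 of 37 genes. Null capture 4 lay 0.29 above and was highest for 13, while null captures 3 and 5 lay below, at −0.41 and −0.61. Over all genes these deviations were 0.06 or less in size. In hand-dissected MM, array 7 was highest for 26 genes and array 5 lowest for 21, with mean deviations of 0.37 and −0.37. Among wild-type captures, array 1 lay below its group, at −0.38, and array 3 lay 0.28 above.

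**Figure D5:**
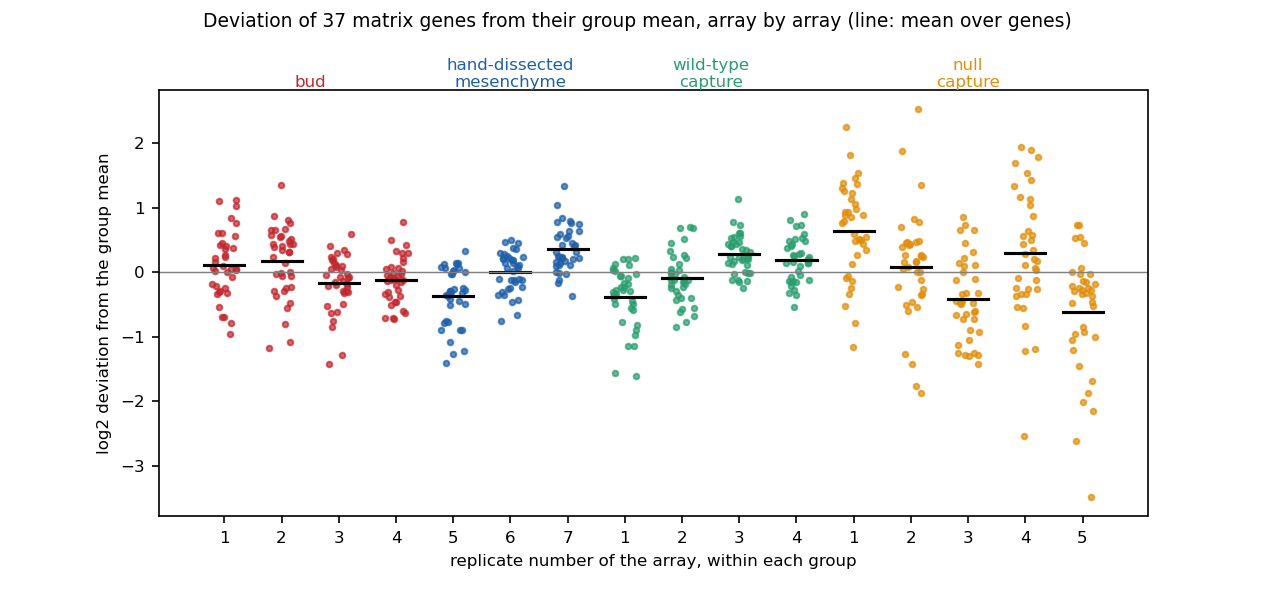
Deviation of each of 37 matrix genes (points, log2 units) from its own group mean on each of the 16 arrays, with the mean over genes as a line. The lines run from −0.61 to 0.64 among the null captures and from −0.38 to 0.37 among the other arrays.

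Genes with a wide spread in the null captures, named after their values were seen, include fibril-associated and proteoglycan genes. Col9a1 read 17230, 16926, 12019, 1104 and 3185, so captures 4 and 5 were low. Dcn read 1501, 211.1, 209.9, 1698 and 424.4, and Col6a3 read 3297, 469.8, 688.3, 5117 and 674.9, both highest on captures 4 and 1. Postn was highest on those captures too, at 8388, 2715, 2091, 11364 and 931.8. Efemp1 read 7305, 3981, 3049, 8463 and 510.3, and Col12a1 read 2126, 1626, 147.9, 669.3 and 4.4, both lowest on capture 5. Vcan read 43762, 44892, 44067, 13787 and 28966, with captures 1 to 3 close together and captures 4 and 5 lower. Capture 4 is the array with skeletal muscle and neuronal markers and with the lowest nephron progenitor sum, 19585 against 37114 to 90732 on the other null captures. Capture 1 carried neuronal markers as well, at 16571 against 2582 to 6394 on captures 2, 3 and 5, and its muscle sum of 1557 was above the 271 to 481 of those arrays. Capture 5 is the array with gonad and coelomic markers. The part of these cell types in the matrix values was not tested.

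Some genes were steady across all null captures. Fn1 read 43010, 55132, 49014, 43161 and 40321, Fbln1 varied 1.42-fold, Sparc 1.44-fold and Col3a1 1.56-fold. Col3a1 read 80525, 58363, 63216, 65833 and 51619, and Col1a1 varied 3.32-fold on the same arrays.

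Few matrix genes were called between wild-type mesenchyme taken by laser capture and by hand. Of 37 tested, 2 were called higher in captures, 1 lower and 34 were not called, against 13.6% higher and 9.88% lower over all genes tested. The median log2 difference, capture minus hand, was 0.25 over the matrix genes and 0.08 over all genes. This comparison shares its hand-dissected arrays with the comparison of bud and mesenchyme, and its captured arrays with that of null and wild type.

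Postn read 3818, 4471, 6067 and 5353 in wild-type captures and 1726, 2068 and 3069 in hand-dissected MM, so every capture was above every hand-dissected array (1.11 ± 0.24, SE, adjusted p = 0.00773, limma). Col3a1 read 50401, 48126, 52565 and 58440 against 30761, 41121 and 44073, 1.36-fold in the means (0.45 ± 0.13, SE, adjusted p = 0.0251, limma). A second Col3a1 probe set differed by 0.25 (adjusted p = 0.520, limma). Col1a1 read 4305, 4086, 8982 and 4740 against 9610, 12697 and 12442, below on every capture (−1.13 ± 0.26, SE, adjusted p = 0.00980, limma). Collagen I's other chain, Col1a2, was not called (0.48 ± 0.26, SE, adjusted p = 0.200, limma).

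Bud markers were higher in these captures than in hand-dissected MM, and Col1a1, Col3a1 and Postn are each lower in the bud. Of the erythroid markers 5 of 8 tested were also higher in captures (list median 1.08), and of the macrophage markers 3 of 7 (1.26). Of 8 renal stroma markers tested 2 were higher and 3 lower, and of 7 nephron progenitor markers 0 were higher and 1 lower. Among 10 endothelial and 3 smooth muscle markers 0 were called, while 1 of 5 chondrogenic and 1 of 3 neural crest and neuronal markers were higher. Tubb3, among those 3 neuronal markers, exceeded its own array's median on no hand-dissected MM array. It entered this test only through the captures, so its place in the count supports nothing. The Gapdh ratio of 3′ to 5′ signal was 19.8 in captures and 42.5 in hand-dissected MM (exact permutation p = 0.0857, two-sided; 0.257 adjusted). The part of these in the matrix differences was not tested. Wild-type captures 2 and 4 held the most bud marker signal, 62874 and 45021. Without them 0 matrix genes were called: the difference was 1.10 for Postn (adjusted p = 0.0771, limma), 0.43 for Col3a1 (adjusted p = 0.148, limma) and −0.88 for Col1a1 (adjusted p = 0.114, limma). With all captures these differences were 1.11, 0.45 and −1.13. Only wild-type captures 1 and 3 were left in that fit, which by itself lowers the precision, and what removed the calls was not tested. The fit of all 4 groups called 0 matrix genes as well. The arrays did not overlap for 7 genes, Col3a1, Col5a1, Col11a1, Loxl1, Vcan and Postn above and Col1a1 below in captures. Of all genes tested 34.1% did not overlap (19.5% above, 14.7% below). Other probe sets gave 4 higher calls where the representative gave none, those of Col1a2 (2.17), Col18a1 (1.19), Fbn2 (2.25) and Sparc (1.20).

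Genes acting on the matrix were called between captured and hand-dissected MM at counts to be read against the 13.6% called higher and 9.88% called lower over all genes tested. P3h3, a collagen prolyl hydroxylase family member, Bmp1, which cleaves procollagens, and Mia3, which helps export them, were higher in captures by 1.80, 1.22 and 0.92, 3 of 21 tested. Adamts1 and Timp2 were lower, at −1.27 and −0.53, 2 of 15 tested. Ltbp1, which holds latent TGF-beta in the matrix, was higher by 0.91, and Ccn1 and Smad7 were lower, at −2.06 and −1.06, among 15 tested. The receptors Itgb5 and Mrc2 were higher by 1.10 and 0.81 among 16 tested. Thbs3 and Sparcl1 were higher by 2.08 and 1.47, and Has2 lower, at −0.82, among 25 tested.

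Across the 4 groups a few patterns were seen, and they can share genes. For Col3a1, Col9a1 and Vcan, each of the 12 mesenchyme arrays lay above each of the 4 bud arrays. This also held for other matrix genes, among them Col1a1, Col1a2, Col5a1, Col5a2, Col6a3, Mfap4, Lox, Bgn and Postn. The share of all genes with this order was not counted. Fbn2 and Fn1 were bright on all 16 arrays, between 18548 and 46877 for Fbn2 and between 23542 and 55132 for Fn1. Col18a1 was bright everywhere and brighter in bud than in hand-dissected mesenchyme, with wild-type captures from 3623 to 12219 and null captures from 6893 to 18936. Col1a1 stepped down from hand-dissected MM (11583 ± 1714, SD, n = 3) to wild-type captures (5528 ± 2319, SD, n = 4), null captures (2608 ± 1461, SD, n = 5) and UB (213 ± 49, SD, n = 4), where the neighbouring step from wild-type to null captures was not called.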

How the data were processed

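RNA of 16 samples was amplified in 2 rounds, starting from transcript 3′ ends, and hybridized to 1 Affymetrix MOE430_v2 array each, per the labels' protocols. The values the authors deposited are linear MAS5 signal intensities, per the submitters' processing notes, and the values show that each array had been scaled to a trimmed mean of 1500.01. Detection calls, MAS5's version and any slide or scan date are not stated there, and no batch could be fitted. No pair of arrays was identical, and arrays give no read depth: their number limits the precision.

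Of 45101 probe sets, 64 controls were removed; 34945 of the rest had 1 symbol in the platform annotation, 932 several and 9160 none here. Signals became log2(signal + 36.3), the offset being the 25th percentile of all values, so differences of dim genes are understated. Kept probe sets exceeded their array's median on a number of arrays no lower than the size of the smaller group. Each comparison was fitted on its own arrays with limma 3.58.1 in R 4.3.3 (lmFit, eBayes with trend), with Benjamini-Hochberg adjustment over all kept probe sets. The fit was checked on simulated data. Folds are ratios of mean signals. Python 3.11.15, pandas 2.3.3, scipy 1.17.1 and matplotlib 3.10.9 served for tables, permutation tests and figures.

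The matrix genes and all lists were chosen with earlier results of these data known. Every array's value is given for genes called between captured and hand-dissected or null and wild-type mesenchyme, for the 3 positive and the 8 most negative differences of bud against mesenchyme, and for the brightest gene of each role. Genes outside the matrix list are named when called, up to 4 per list and direction. Alternatives changed the offset, scaling, filter, variance model, weights, arrays and probe sets. Those without null captures 4 and 5, and without wild-type captures 2 and 4, were chosen after marker levels were seen. Protein sequences were not used here.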

Additional observations from a re-analysis of the deposited data

Results flagged for a closer look

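A single array was tested for standing apart from the others of its group in 111 gene and group combinations (groups of 4 or 5 arrays, Dixon's test), where chance gives about 1 in 20, and 3 were found. Col8a1 read 792.5 on wild-type capture 3 and 423.7 to 464.5 on the other wild-type captures. Col8a1 also read 880.4 on null capture 1 and 173.5 to 228.5 on the other null captures. Mfap5, a microfibril-associated glycoprotein, read 162.9 on wild-type capture 1 and 480.3 to 563.2 on the others.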

How the results depend on the processing

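In bud against mesenchyme, the counts of matrix genes called stayed within 1.5 times of 26 lower and 2 higher in every alternative except the gene mean over probe sets (15 lower, 1 higher, of 25 tested), and the median difference ran from −2.55 to −1.89. Leaving out 1 array gave 22 to 27 lower and 2 to 3 higher. In null against wild type, 0 were called except with array weights (1 higher, 1 lower), with all 4 groups in 1 fit (2 higher, 1 lower) and without null capture 1 (1 and 1, the range being 0 to 1 in each direction), and the median ran from −0.21 to 0.12, above 0 after median centring. With the replicate number as a block 0 were called, with a median of 0.06; numbers shared by null and wild-type captures did not pair them (correlation of deviations −0.14 to 0.14, and 1 of 4 null arrays correlated best with its own number).

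In captured against hand-dissected mesenchyme (2 higher, 1 lower), quantile and loess scaling each gave 3 lower. Median centring gave 1 higher and 2 lower. Without a filter, and without a trend in the variance, 1 was higher. Array weights gave 4 higher and 5 lower, all 4 groups in 1 fit gave 0 and 0, and the gene mean over probe sets gave 5 higher. Without wild-type captures 2 and 4, 0 were called in either direction. Leaving out 1 array gave 1 to 4 higher, with 1 higher without hand-dissected array 5 or wild-type capture 4, 4 without wild-type capture 2, and 1 lower in each. The cause of these changes was not tested. Signals near background limit Col8a1, Col12a1, Dcn, Fbln5, Lum, Matn2, Mfap5 and Tnc in bud.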
